A study of Mus musculus with 6 samples.

Results

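The immunoglobulin kappa locus was described in SMART-seq libraries of neonatal lung group 2 innate lymphoid cells (ILC2s). Its members were all V, J and C genes whose symbol begins with Igkv, Igkj or Igkc, together with the entry of Igkv4-59, which the files list under the symbol Ifit1. They numbered 166 of the 55394 genes in the files, with 160 V genes, 5 J genes and 1 C gene. Of the V genes, GENCODE M21 (GRCm38) classes 100 as V genes and 60 as V pseudogenes. All 166 lie on chromosome 6 between positions 67555497 and 70726966, a span of 3171.5 kb.

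Each library came from 1000 sorted wild-type lung ILC2s of neonates. The Abx group had 3 libraries from pups of C57BL/6 dams that drank a cocktail of ampicillin, metronidazole, neomycin and vancomycin from gestation day 10 to day 14, and the Con group had 3 libraries from pups of control dams. In flow cytometry the study gated lung ILC2s as positive for CD45, CD90.2, CD25 and GATA3 and negative for a lineage cocktail that included B220, a B cell antigen. Whether GATA3, which was stained in fixed cells, was part of the sort for these libraries is not given in the sources used here. The labels do not say whether libraries of a group came from separate litters or pools of pups, so the p-values measure only the spread between these libraries.

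In a developing B cell the kappa locus is rearranged by the RAG recombinase, which joins one V gene to one J gene by deletion or, for V genes in the opposite orientation, by inversion. The joined VJ exon is spliced to the exon of Igkc, and the light chain pairs with a heavy chain to form the B cell receptor. The J gene supplies the end of the third hypervariable loop and the framework that follows it. Unjoined V and J genes and the Igkc exon can also be transcribed from the germline locus.

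The J segments are shown because almost no signal was assigned to them, although every productive kappa transcript carries one. Capitals mark the codons of the Phe-Gly-X-Gly motif, which was found in 4 of the 5 segments and not in Igkj3. The segments are 38 to 39 bases long and are printed 5′ to 3′ on the plus strand of GRCm38, from GENCODE M21 transcripts. Igkj1 lies at chr6:70722562-70722599, Igkj2 at chr6:70722916-70722954, Igkj3 at chr6:70723223-70723260, Igkj4 at chr6:70723548-70723585 and Igkj5 at chr6:70723886-70723923.
Igkj1: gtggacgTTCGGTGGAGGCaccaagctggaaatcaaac
Igkj2: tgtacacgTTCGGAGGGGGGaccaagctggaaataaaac
Igkj3: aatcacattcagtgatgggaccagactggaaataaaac
Igkj4: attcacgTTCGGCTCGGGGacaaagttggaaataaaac
Igkj5: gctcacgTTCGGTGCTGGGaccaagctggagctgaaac

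For the V genes the last 60 bases of the V exon are shown, the end that is joined to a J segment. The 7 genes are those with the highest level in any library and those whose Abx and Con values did not overlap. Capitals mark the codon of the last cysteine, found in frame from the start codon, after which the V-encoded part of the third hypervariable loop begins. The positions on GRCm38 are chr6:68050397-68050456 (plus strand) for Igkv9-120, chr6:68121768-68121827 (plus) for Igkv1-117, chr6:68631963-68632022 (minus) for Igkv10-96, chr6:68736297-68736356 (minus) for Igkv19-93, chr6:69016558-69016617 (minus) for Igkv4-80, chr6:69438218-69438277 (minus) for Igkv4-59 and chr6:69858420-69858479 (minus) for Igkv12-41.
Igkv9-120: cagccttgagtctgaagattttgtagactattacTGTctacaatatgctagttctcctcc
Igkv1-117: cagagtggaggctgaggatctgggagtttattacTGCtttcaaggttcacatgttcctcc
Igkv10-96: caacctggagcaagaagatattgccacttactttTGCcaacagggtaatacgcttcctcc
Igkv19-93: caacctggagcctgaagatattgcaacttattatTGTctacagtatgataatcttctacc
Igkv4-80: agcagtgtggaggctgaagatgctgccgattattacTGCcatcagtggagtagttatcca
Igkv4-59: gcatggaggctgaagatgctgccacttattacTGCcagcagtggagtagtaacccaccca
Igkv12-41: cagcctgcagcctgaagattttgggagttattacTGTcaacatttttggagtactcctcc

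Over their whole spliced transcripts these 7 V genes are 55.2% to 87.2% identical in pairs, with Igkv4-80 and Igkv4-59 the closest pair. Other V genes are more alike. Among the 45 V genes that reached 1 FPKM in any library, the identity to the closest other kappa V gene ranged from 73.6% to 98.7%, with a median of 92.2%. In 36 of them at least one stretch of 50 bases was also present in another kappa V gene. In Igkv4-59, 74.3% of all such stretches were shared. Reads from these stretches could have been counted for more than one gene or for the wrong gene, so the level of a single V gene is less certain than that of Igkc. If reads were counted more than once, the sum of the V genes and the number detected would be too high as well.

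The values are FPKM, fragments scaled to transcript length and to the mapped fragments of the library, which the authors computed per gene. Total FPKM per library ranged from 420941 to 489262. The genes that reached 1 FPKM numbered 8852, 8574 and 9203 in Con replicates 1, 2 and 3. In Abx replicates 1, 2 and 3 they numbered 7074, 8193 and 7572. Every Con library thus had more genes at 1 FPKM than any Abx library, which limits comparisons of detection between the groups. The number of reads is unknown, so no counting error can be given. A value of 0 is reported as listed at 0, although none of 16 genes that every cell uses and none of 76 ribosomal protein genes was listed at 0 in any library. Of 12 ILC2 marker genes, 11 reached 1 FPKM in all 6 libraries. The exception was Il1rl1, the IL-33 receptor, at 0.06 to 2.94 FPKM across Con and 0.01 to 0.03 FPKM across Abx. The list summed to 2212 to 2686 FPKM across Con and 1893 to 2352 FPKM across Abx, which overlapped. Areg (657 to 783 and 197 to 393 FPKM) and Icos (241 to 289 and 82.4 to 120 FPKM) were lower in every Abx library. In the limma test described below, 11 were tested and 0 called, with 6 fitted higher and 5 lower in Abx. The groups also differed in sex-linked genes. Xist, the RNA of the inactive X chromosome, was at 3.78 to 5.09 FPKM in Con and listed at 0 in Abx, and the Y-linked gene Eif2s3y was at 11.9 to 24.4 FPKM in Abx and at most 0.86 FPKM in Con. The sex of the pups and the treatment of the dams cannot be told apart in these libraries.

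Transcripts of the kappa constant region were present in every library and were at higher levels in all Abx libraries than in any Con library, but the difference did not pass the test. Igkc (ENSMUSG00000076609, chr6:70726435-70726966, plus strand) encodes the whole constant domain of the kappa chain in one exon. The end of its coding part, the last 60 bases at chr6:70726695-70726754, is shown with the codon of the final cysteine in capitals, the residue that forms the disulphide bond to the heavy chain.
Igkc: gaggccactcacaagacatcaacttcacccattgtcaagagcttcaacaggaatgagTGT

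Igkc was at 127, 180 and 218 FPKM in Con replicates 1, 2 and 3. It was at 261, 365 and 292 FPKM in Abx replicates 1, 2 and 3. The groups did not overlap, and the lowest Abx library lay above the highest Con library. The means were 175 ± 46.0 FPKM for Con and 306 ± 53.2 FPKM for Abx (SD, with n = 3 each). On the log2(FPKM + 1) scale Igkc was higher in Abx by 0.82 with a standard error of 0.26 (95% interval 0.21 to 1.44) and an adjusted p of 0.256 in limma with the Benjamini-Hochberg method over 8718 genes. An exact two-sided permutation test gave p = 0.1, the smallest that 3 libraries against 3 allow. By mean level Igkc ranked 251 among the 55394 genes, and by its log2 fold change it ranked 1277 among the 8718 tested. In bulk samples, more cells with kappa transcripts and more kappa RNA per cell cannot be told apart.

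**Figure D1:**
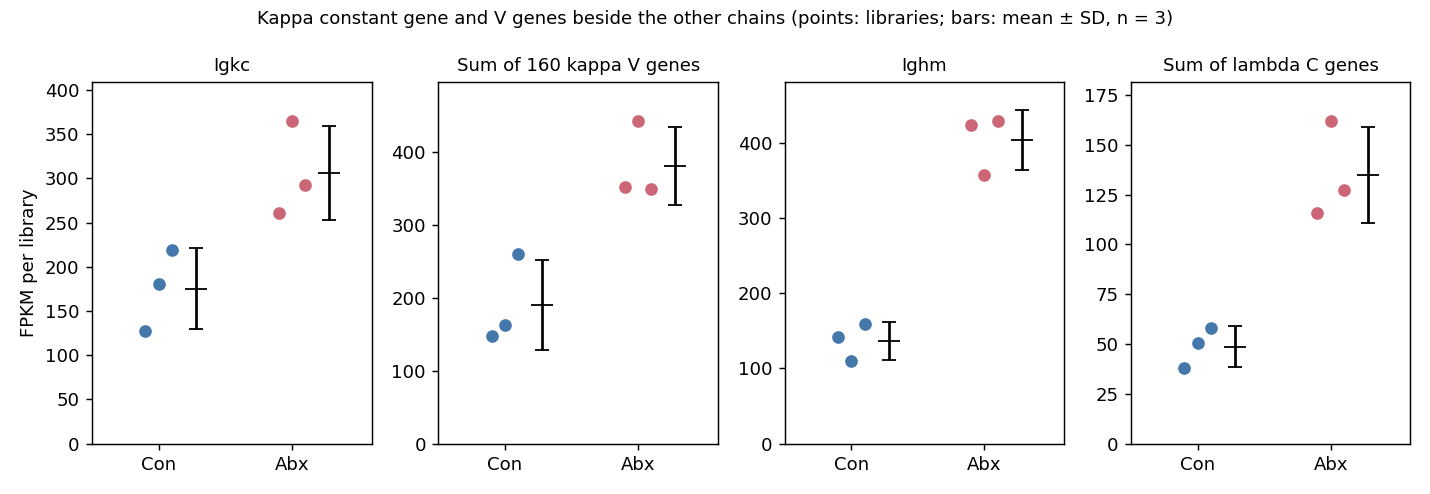
FPKM per library (points, 3 Con and 3 Abx) of Igkc, of the 160 kappa V genes summed, of the heavy chain gene Ighm and of the lambda constant genes summed, with the mean and SD beside them and each axis starting at 0. In each panel every Abx library lies above every Con library, for example 261 to 365 FPKM against 127 to 218 FPKM for Igkc.

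The V genes summed were also higher in every Abx library than in any Con library. The V total was 147, 163 and 261 FPKM in Con replicates 1, 2 and 3 and 352, 443 and 350 FPKM in Abx replicates 1, 2 and 3. The means were 190 ± 61.5 FPKM for Con and 381 ± 53.2 FPKM for Abx (SD, with n = 3 each), a ratio of 2.00. Since this sum runs over genes chosen with earlier results known, no p is given for it. The V total divided by Igkc, both on the FPKM scale, was 1.161, 0.904 and 1.194 across Con and 1.349, 1.214 and 1.195 across Abx, so that the highest Con and the lowest Abx ratio nearly met. As a share of total FPKM, the V genes made up 0.0328% to 0.0620% in Con and 0.0786% to 0.0905% in Abx.

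Almost no signal was assigned to the J genes. Igkj1 was at 2.52 FPKM in Abx replicate 2 and listed at 0 in the other 5 libraries. Igkj2, Igkj3, Igkj4 and Igkj5 were listed at 0 in all 6 libraries. Whether reads across a V-J join were mapped or counted for these short segments was not tested. The same absence was seen in the heavy chain locus, where all 24 D and J genes were listed at 0 in every library. The lambda locus differed. Iglj2 was at 0.13 to 0.25 FPKM in the 6 libraries, and Iglj3 at 2.0 and 3.75 FPKM in Con replicates 1 and 2 only. Its other J entries were listed at 0.

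Most V genes were not detected, and those that were differed between libraries. Of the 960 values of the 160 V genes in 6 libraries, 863 (89.9%) were listed at 0, 12 lay between 0 and 1 FPKM and 85 reached 1 FPKM. A total of 112 V genes were listed at 0 everywhere. Of the 48 that were above 0 in any library, 45 reached 1 FPKM in at least 1 library. These comprised 44 of the 100 V genes classed as such and 1 of the 60 pseudogenes, Igkv4-77, at 10.6 FPKM in Con replicate 2 and listed at 0 elsewhere.

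The V genes that reached 1 FPKM numbered 10, 11 and 28 in Con replicates 1, 2 and 3 and 11, 17 and 8 in Abx replicates 1, 2 and 3. The groups overlapped, and Con replicate 3 stood out with the most V genes. Its V genes were also low, since only 6 of them reached 10 FPKM, compared with 7 and 11 in the other Con libraries and 9, 17 and 7 in Abx. The mean number of V genes above 0 was lower in Abx than in Con by 4.33 with all libraries, and was higher by 2 without Con replicate 3. At a limit of 10 FPKM it was higher in Abx by 3. Thus the direction of this difference depended on 1 library and on the limit.

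Detection of V genes varied between libraries. None of the 45 V genes reached 1 FPKM in all 6 libraries, whereas 32.8% of the 12952 genes of the genome that reached 1 FPKM anywhere did so in all 6. In 1 library only, the shares were 46.7% (21 V genes) and 20.8%. The V gene with the broadest detection was Igkv10-96, in 5 libraries. Con replicates 1 and 2 shared 2 V genes, of 10 in the former and 11 in the latter. Con replicate 3, with its 28 V genes, shared 8 with Con replicate 1 (80.0% of those of replicate 1) and 5 with Con replicate 2 (45.5% of those of replicate 2). Each pair of Abx libraries shared 3, or 17.7% to 37.5% of the V genes of either library. Between the groups, Con replicate 3 shared 8, 9 and 4 with Abx replicates 1, 2 and 3, or 72.7%, 52.9% and 50% of the V genes of these, and 14.3% to 32.1% of its own. The other Con libraries shared 2 to 4 with each Abx library.

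**Figure D2:**
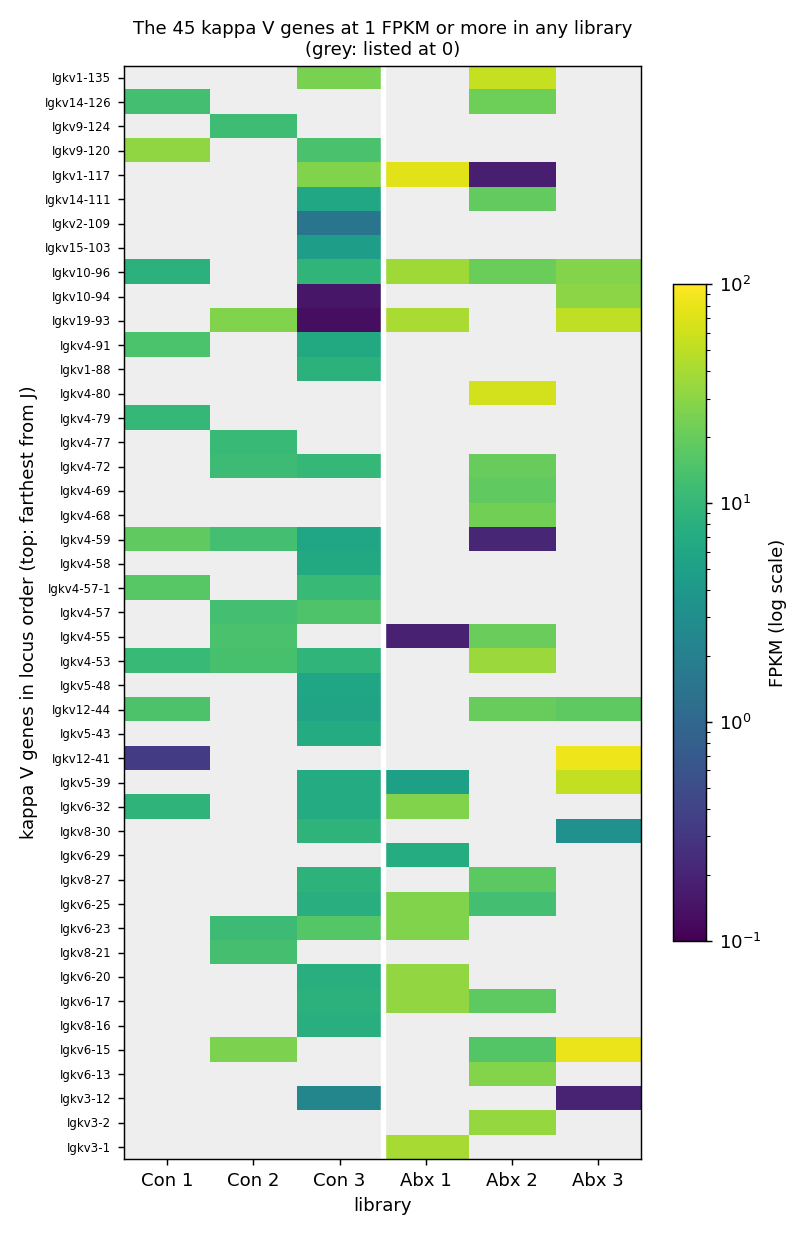
FPKM on a log colour scale of the 45 kappa V genes at 1 FPKM or more in any library, with genes in locus order from the end farthest from the J genes (top) and libraries in columns (3 Con, then 3 Abx). Grey cells are listed at 0 and make up most of the map, no row is filled in all 6 columns, and Con replicate 3 has the most coloured cells.

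By group, 36 V genes reached 1 FPKM in any Con library and 28 in any Abx library, of which 19 did so in both groups. Detection was limited to Con for 17 V genes (37.8% of 45) and to Abx for 9 (20%), where the shares among all 12952 genes were 17.6% and 11%. Of the 17, 12 rested on 1 library (26.7% of 45, against 11.8% of all genes), and all 9 of the Abx group rested on 1 library (20% against 8.95%). For most of the 12 this library was Con replicate 3, the one with the most V genes. In 2 or 3 Con libraries and no Abx library there were 5 V genes (11.1% of 45), where the share among all 12952 genes was 5.78%. These were Igkv9-120, Igkv4-59, Igkv4-57, Igkv4-57-1 and Igkv4-91. All 5 were detected in Con replicate 3, and without that library only Igkv4-59 would remain in more than 1 Con library. In 2 or 3 Abx libraries and no Con library there were 0 V genes, where the share among all genes was 2.05%. The names of these 5 genes were taken after their values were seen.

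A different V gene led in nearly every library. The leading gene was Igkv9-120 in Con replicate 1 at 31.9 FPKM, Igkv19-93 in Con replicate 2 at 26.9 FPKM and Igkv1-117 in Con replicate 3 at 27.1 FPKM. In Abx replicates 1, 2 and 3 it was Igkv1-117 at 73.3 FPKM, Igkv4-80 at 61.8 FPKM and Igkv12-41 at 84.1 FPKM. Igkv1-117 was the only V gene to lead in more than one library, and it is 96.8% identical to Igkv1-110.

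The 5 highest V genes held 65.0%, 57.0% and 37.2% of the V total in Con replicates 1, 2 and 3 and 64.0%, 48.3% and 86.0% in Abx replicates 1, 2 and 3. The effective number of V genes, the exponential of the Shannon entropy of their shares, was 9.35, 10.4 and 24.2 across Con and 9.44, 15.4 and 6.44 across Abx. Both measures overlapped between the groups. The most even library was Con replicate 3, and the least even was Abx replicate 3.

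The V genes with the highest means over the 6 libraries were mostly high in 1 or 2 libraries. Igkv6-15, the first by mean, was at 82.1 FPKM in Abx replicate 3, 25.7 FPKM in Con replicate 2 and 15.8 FPKM in Abx replicate 2, and was listed at 0 in the other 3. Igkv19-93 was at 41.5 and 51.4 FPKM in Abx replicates 1 and 3, 26.9 FPKM in Con replicate 2 and 0.13 FPKM in Con replicate 3. In both genes high values occurred in each group and zeros did too.

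Igkv1-117 was at 27.1 FPKM in Con replicate 3, 73.3 FPKM in Abx replicate 1 and 0.18 FPKM in Abx replicate 2. Igkv1-135, at the end of the locus farthest from the J genes, was at 25.0 FPKM in Con replicate 3 and 54.4 FPKM in Abx replicate 2. Each was listed at 0 in the libraries not named. For both, a Con and an Abx library were high.

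Igkv12-41 was at 84.1 FPKM in Abx replicate 3, 0.34 FPKM in Con replicate 1 and listed at 0 in the other 4 libraries. Igkv4-80 was at 61.8 FPKM in Abx replicate 2 and listed at 0 in all others. Igkv5-39 was at 53.1 FPKM in Abx replicate 3, 5.10 FPKM in Abx replicate 1 and 7.01 FPKM in Con replicate 3. The high values of these 3 genes belong to a single Abx library each.

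Igkv4-53 was detected in every Con library, at 10.9, 13.4 and 9.22 FPKM, and in Abx replicate 2 at 35.8 FPKM, and was listed at 0 in Abx replicates 1 and 3. Igkv6-17 was at 8.5 FPKM in Con replicate 3 and at 32.8 and 17.9 FPKM in Abx replicates 1 and 2. Neither separated the groups.

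Only 13 members passed the filter of 1 FPKM in at least 3 libraries, namely Igkc and 12 V genes. No kappa gene was called in limma with an adjusted p under 0.05 and a fold change over 2 in either direction, where 0.0574% of all 8718 genes were called, 0.0459% higher and 0.0115% lower in Abx. Of the 13, 8 had a higher and 5 a lower fitted level in Abx. At an unadjusted p under 0.05 with the same limit on the fold change, 2 passed, where 9.34% of all genes did (3.61% higher and 5.72% lower in Abx). These were Igkv10-96, higher in Abx, and Igkv4-59, lower in Abx, which passed the filter only through the Con libraries and therefore had to differ. The Abx and Con values of 3 members did not overlap, which 17.2% of all genes tested showed as well. Igkc and Igkv10-96 lay above in Abx (8.49% of all genes) and Igkv4-59 lay above in Con (8.73%).

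Igkv10-96 was at 8.53 and 9.22 FPKM in Con replicates 1 and 3 and listed at 0 in Con replicate 2. It was at 37.2, 21.1 and 27.6 FPKM in Abx replicates 1, 2 and 3. All Abx libraries were above all Con libraries. The log2 fold change on the log2(FPKM + 1) scale was 2.65 with a standard error of 0.96 and an adjusted p of 0.328 in limma, and the exact permutation test gave p = 0.1. Without Con replicate 2, the library listed at 0, the log2 fold change was 1.55 with an adjusted p of 0.689 in limma.

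Igkv4-59 (ENSMUSG00000094006) was at 18.7, 12.7 and 6.03 FPKM in Con replicates 1, 2 and 3. It was listed at 0 in Abx replicates 1 and 3 and at 0.21 FPKM in Abx replicate 2. All Con libraries were above all Abx libraries. Since the filter was passed only through Con, the values of the fit are a description and no support for a difference. The log2 fold change was -3.54 with a standard error of 0.68 and an adjusted p of 0.0912 in limma, and p was 0.1 in the exact permutation test.

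In the files the entry of Igkv4-59 carries the symbol Ifit1, an interferon-induced gene on another chromosome. The entry with the identifier of Ifit1 itself (ENSMUSG00000034459) was at 0.27, 0.19 and 0.12 FPKM across Con and 0.51, 0.37 and 0.25 FPKM across Abx. It stayed under 1 FPKM in all libraries, and the values of 6.03 to 18.7 FPKM belong to the kappa V gene.

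**Figure D3:**
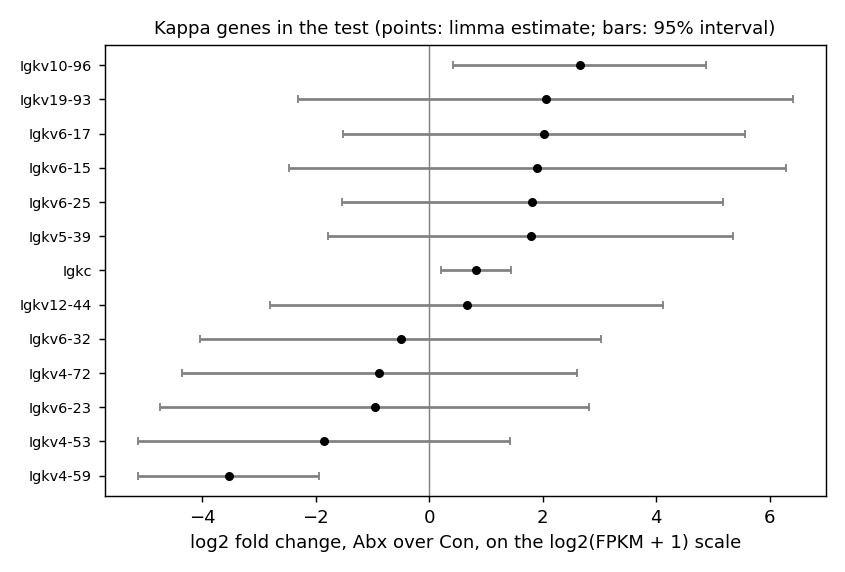
Fitted log2 fold change of Abx over Con on the log2(FPKM + 1) scale (points, limma) with 95% intervals (bars) for the 13 kappa genes that passed the filter. The interval is narrowest for Igkc (0.21 to 1.44), and those of Igkc and Igkv10-96 do not include 0, before adjustment for the number of genes. That of Igkv4-59 does not either, but this gene passed the filter only through Con.

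The remaining 10 V genes tested had overlapping groups, log2 fold changes from -1.86 (Igkv4-53) to 2.05 (Igkv19-93) and adjusted p of 0.706 to 0.933 in limma. Their standard errors ranged from 1.41 to 1.88, so differences of several-fold in either direction lay within the intervals. Leaving out 1 library moved the log2 fold change of each of these 10 by over 1.5 times. These fits include only those in which the gene still passed the filter. For Igkv4-53, which always did, it ranged from -3.59 (without Abx replicate 2) to -0.99. Igkv19-93 passed only without Con replicate 1, Con replicate 3 or Abx replicate 2, and ranged from 1.22 to 3.90 (without Abx replicate 2).

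Sorted by subgroup, the family of related V genes given by the first number in the symbol, the Igkv4 and Igkv6 genes had the highest mean levels over the 6 libraries, but the order differed between libraries. In Abx replicate 3 the Igkv12 genes were highest with 29.2% of the V total, and in Abx replicate 1 the Igkv1 genes came after Igkv6 with 20.8%. In Con replicate 1 Igkv6 held only 6.11%. Of the 9 Igkv6 genes, 8 reached 1 FPKM in some library, compared with 13 of the 33 Igkv4 genes. None of the 18 Igkv13 genes did, of which 2 are not classed as pseudogenes. The Igkv6 genes summed to 9.0, 36.9 and 47.0 FPKM in Con replicates 1, 2 and 3 and to 154, 74.7 and 82.1 FPKM in Abx replicates 1, 2 and 3. The Abx libraries were all higher, and no p is given for this sum.

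The Igkv4 genes summed to 70.2, 74.5 and 63.8 FPKM in Con, a narrow range, and to 0.19, 180 and 0 FPKM in Abx. They thus supplied 24.5% to 47.7% of the V total in Con, 40.7% in Abx replicate 2 and at most 0.05% in the other Abx libraries. The subgroup therefore overlapped between the groups.

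The Igkv9 genes summed to 31.9, 11.6 and 13.8 FPKM in Con and were listed at 0 in all Abx libraries. In Con replicates 1 and 3 the signal came from Igkv9-120 and in Con replicate 2 from Igkv9-124, which are 95.2% identical. The Igkv10 genes summed to 8.53, 0 and 9.37 FPKM across Con and 37.2, 21.2 and 57.4 FPKM across Abx. In Abx replicate 3 part of this sum, 29.8 FPKM, came from Igkv10-94. Igkv6, Igkv9 and Igkv10 were the only subgroups of 20 whose sums did not overlap between Abx and Con, where 17.2% of all single genes tested did not. Subgroups listed at 0 in all libraries, such as Igkv7 and Igkv13, could not separate. The single genes had passed the filter and these sums had not, so the shares are not directly comparable. As shares of the V total, Igkv6 overlapped (6.11% to 22.7% across Con and 16.9% to 43.9% across Abx), as did Igkv10 (0% to 5.79% and 4.79% to 16.4%), while Igkv9 did not (5.29% to 21.7% and 0%).

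**Figure D4:**
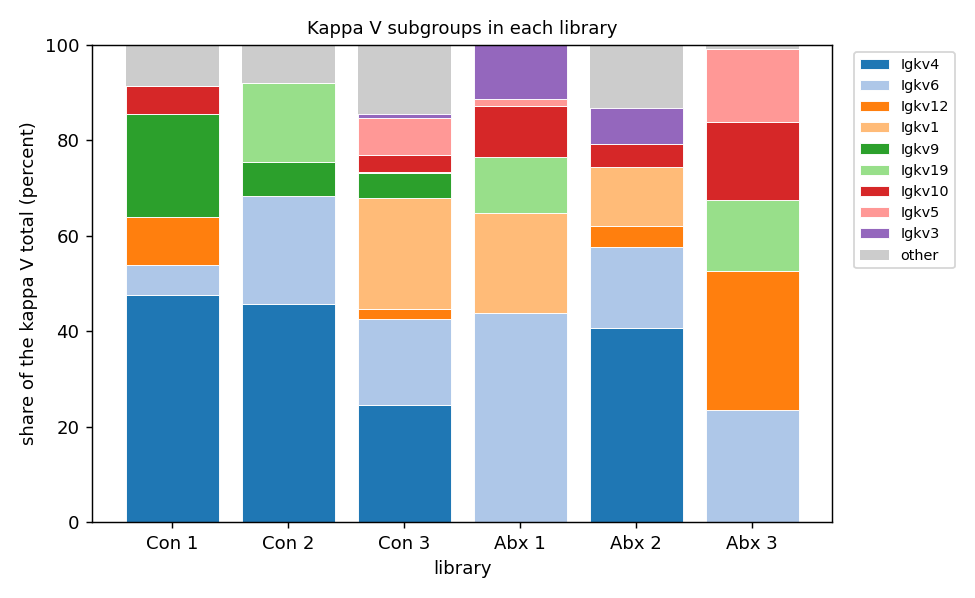
Share of the kappa V total, in percent, held by the V subgroups in each library (stacked bars, the 9 subgroups with the highest share in any library and all others together). Igkv4 holds 24.5% to 47.7% in the 3 Con libraries and 40.7% in Abx replicate 2, and is almost absent in Abx replicates 1 and 3, where Igkv6 holds 43.9% and 23.5%.

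Detected V genes were spread over the whole locus. The 80 V genes farthest from the J genes held 52.5%, 37.0% and 43.4% of the V total in Con and 43.2%, 44.8% and 31.1% in Abx. The groups overlapped, and both parts of the locus contributed in each library. Of the 160 V genes, 75 lie in the same orientation as the J and C genes and 85 in the opposite orientation. Genes in the same orientation held 30.3%, 0% and 37.3% of the V total in Con and 49.2%, 36.1% and 0.06% in Abx. In Con replicate 2 and Abx replicate 3 practically all V signal came from genes in the opposite orientation.

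**Figure D5:**
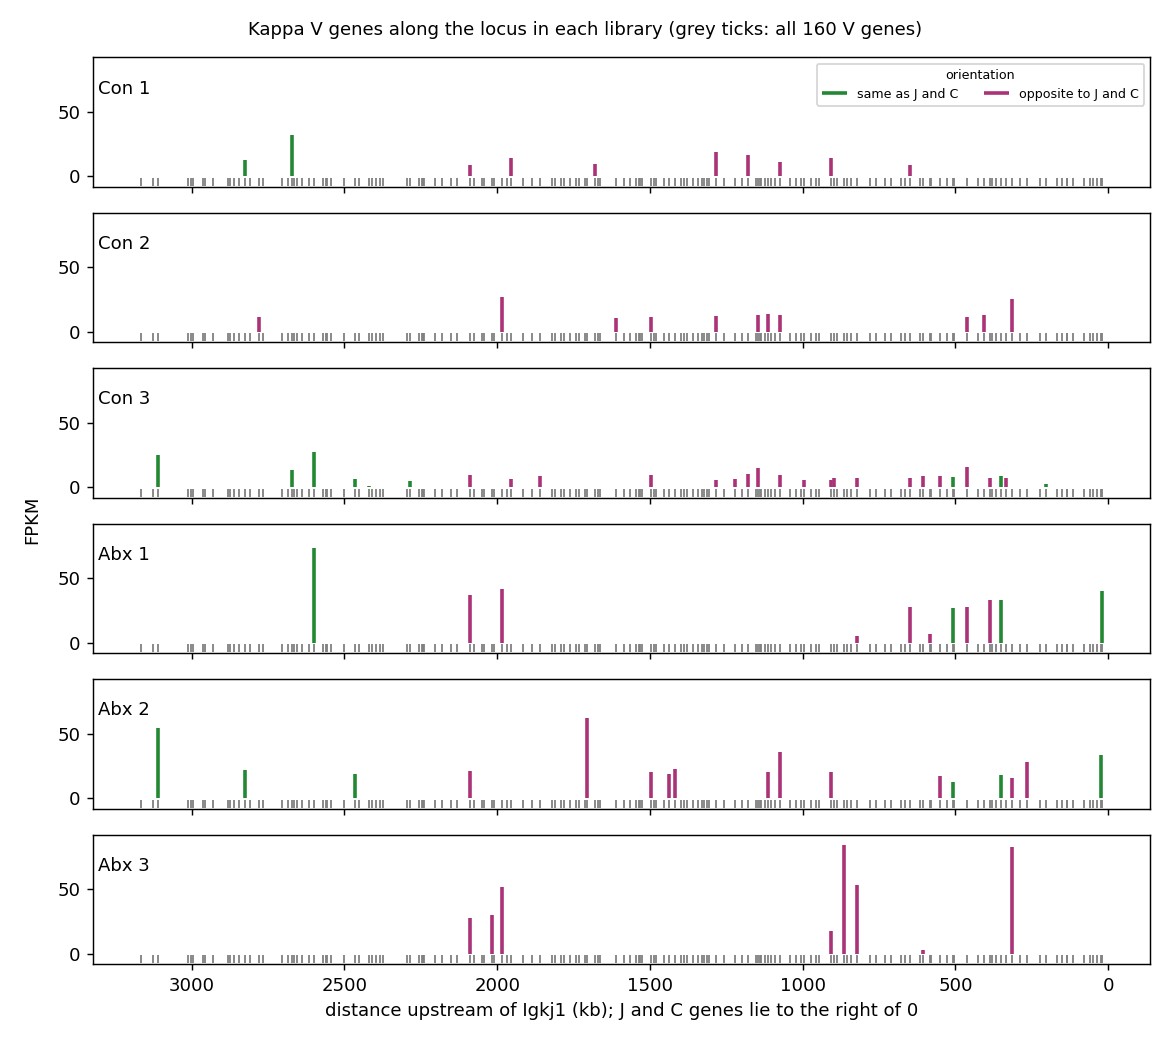
FPKM of each kappa V gene against its distance upstream of Igkj1 in kb, with 1 panel per library and all 160 V genes as grey ticks. Green lines are genes in the orientation of the J and C genes and purple lines those in the opposite orientation, and green lines are missing or too low to see in Con replicate 2 (0% of the V total) and Abx replicate 3 (0.06%).

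The summed levels of the other immunoglobulin chains were higher in all Abx libraries as well. Ighm, the constant gene of the mu heavy chain, was at 141, 109 and 159 FPKM across Con and 423, 358 and 429 FPKM across Abx. Its log2 fold change on the log2(FPKM + 1) scale was 1.57 with a standard error of 0.22 and an adjusted p of 0.0911 in limma, which did not pass. The heavy chain V genes summed to 86.6, 40.9 and 78.3 FPKM across Con and 170, 98.3 and 142 FPKM across Abx. The kappa V total was 1.70 to 3.99 times this sum in Con and 2.07 to 4.51 times in Abx, which overlapped. Of the 8 heavy chain constant genes, the 6 of IgD, IgG1, IgG2b, IgG2c, IgE and IgA were listed at 0 in all libraries.

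Of the lambda chain, the alternative light chain, the constant genes summed to 37.7, 50.4 and 57.9 FPKM across Con and 116, 162 and 127 FPKM across Abx. The V genes summed to 0, 31.1 and 20.6 FPKM across Con and 96.3, 89.2 and 75.9 FPKM across Abx. Both sums were higher in all Abx libraries. Iglc1 was listed at 0 in Con replicate 1, was at 15.8 and 11.1 FPKM in the other Con libraries and at 90.9, 59.3 and 62.1 FPKM in Abx, with a log2 fold change of 3.59, a standard error of 1.0 and an adjusted p of 0.189 in limma. Iglc2 overlapped between the groups, at 16.05 to 27.0 FPKM across Con and 24.3 to 75.0 FPKM across Abx. Iglc3 overlapped too, at 10.8 to 30.8 FPKM across Con and 0.09 to 27.5 FPKM across Abx. Its fitted level was lower in Abx, with a log2 fold change of -2.22 and an adjusted p of 0.608 in limma.

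Of the 33 genes tested in the lists of recombination, surrogate light chain, B cell receptor, transcription factor and other chain genes, none was called (0.0574% of all genes). The median log2 fold change was 0.39 for the recombination genes tested, -0.17 for the B cell receptor genes and -0.48 for the transcription factors, and -0.06 for all 8718 genes. Among 12 recombination genes, 8 were tested. At an unadjusted p under 0.05 and a fold change over 2, 2 were higher in Abx and 1 was lower (3.61% and 5.72% of all genes). Dntt, the terminal transferase that adds bases at V(D)J joins, was at 0.03, 0.02 and 11.6 FPKM across Con and 75.9, 140 and 156 FPKM across Abx. The values did not overlap, and the log2 fold change was 5.66 with a standard error of 1.0 and an adjusted p of 0.0911 in limma. Without Con replicate 3, the only Con library above 1 FPKM, the log2 fold change was 6.86 with an adjusted p of 0.0459 in limma, but the gene then passed the filter only through the Abx libraries, so that this value is no support for a difference.

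Rag1, a subunit of the recombinase, was at 0.86 FPKM in Con replicate 1, listed at 0 in the other Con libraries and at 12.3, 0.99 and 7.80 FPKM in Abx. It did not pass the filter, and the exact permutation test gave p = 0.1. Its partner Rag2 was listed at 0 in all 6 libraries. Prkdc, another recombination gene, did not pass the filter either. It went the other way from Rag1, at 0.44 to 2.62 FPKM across Con and 0.01 to 0.04 FPKM across Abx. The exact permutation test gave p = 0.1 for Prkdc as well. Xrcc5, a subunit of the Ku end-binding complex, was at 1.37 to 9.35 FPKM across Con and 9.27 to 41.7 FPKM across Abx, with an adjusted p of 0.388 in limma. Dclre1c, the Artemis nuclease that opens the coding ends, was at 1.64 to 2.71 FPKM across Con and 0.06 to 0.25 FPKM across Abx, with an adjusted p of 0.217 in limma. It is the gene counted as lower, and it passed the filter only through the Con libraries. The DNA-bending proteins Hmgb2 and Hmgb1 were at 253 to 323 and 41.9 to 56.9 FPKM across Con and at 358 to 392 and 44.8 to 113 FPKM across Abx, with adjusted p of 0.493 and 0.790 in limma. Xrcc6, the partner of Xrcc5, was at 7.13 to 18.1 FPKM across Con and 0.12 to 60.8 FPKM across Abx. Of the 8 recombination genes tested, 5 had a higher and 3 a lower fitted level in Abx. Rag1, Rag2, Prkdc and Dclre1c were named after their values were seen.

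The surrogate light chain, which stands in for kappa in pre-B cells, was sparse. Igll1 and Vpreb2 were listed at 0 in all libraries, Vpreb1 was at most 0.15 FPKM, and Vpreb3 was at 24.1 FPKM in Con replicate 2 and at 10.5 and 23.7 FPKM in Abx replicates 2 and 3. Vpreb3 was thus seen in both groups.

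Among 12 B cell receptor genes, 6 were tested, 0 were called and 1 was lower in Abx at an unadjusted p under 0.05 (5.72% of all genes). Cd79a, a signalling chain of the receptor, was at 39.2, 63.6 and 48.6 FPKM across Con and 71.8, 138 and 61.5 FPKM across Abx. Its partner Cd79b was at 69.5, 117 and 69.8 FPKM across Con and 56.4, 31.0 and 57.4 FPKM across Abx. The former had overlapping groups and a log2 fold change of 0.77 with an adjusted p of 0.532 in limma, and the latter was lower in all Abx libraries with a log2 fold change of -0.82 and an adjusted p of 0.472. Cd22, an inhibitory co-receptor, was at 2.74 to 10.98 FPKM across Con and 0.06 to 1.33 FPKM across Abx, with an adjusted p of 0.288 in limma, and was named after its values were seen. The kinases Lyn and Blk overlapped between the groups, Lyn at 14.7 to 25.0 FPKM across Con and 5.82 to 18.0 FPKM across Abx and Blk at 0 to 9.66 and 0.06 to 28.1 FPKM.

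Of 17 factors that bind the kappa enhancers and promoters, 9 were tested, 0 were called, and 1, Rela, was lower in Abx at an unadjusted p under 0.05 (5.72% of all genes). Rela, the p65 subunit of NF-kappa B, was at 57.7, 59.9 and 44.1 FPKM across Con and 0.30, 29.3 and 14.0 FPKM across Abx, with an adjusted p of 0.396 in limma. Ctcf, which organises chromatin loops, was higher in all Abx libraries, at 12.04 to 23.1 FPKM across Con and 27.9 to 31.4 FPKM across Abx, with an adjusted p of 0.627 in limma. Ikzf3 was lower in all Abx libraries, at 11.9 to 21.6 and 7.43 to 11.2 FPKM, with an adjusted p of 0.647 in limma. Nfkb1 and Tcf3 overlapped between the groups. So did Ikzf1, at 5.51 to 20.5 FPKM across Con and 4.97 to 15.0 FPKM across Abx, Foxo1, at 2.66 to 12.1 and 0.06 to 3.32 FPKM, and Irf8, at 0.01 to 5.50 and 2.28 to 9.90 FPKM. The 8 factors that did not pass the filter differed in their highest values, which were no more than 0.09 FPKM for Pou2af1 and Ebf1, 0.43 FPKM for Pou2f2, 1.3 FPKM for Spi1, 1.63 FPKM for Irf4, 2.33 FPKM for Pax5, 9.19 FPKM for Spib and 12.8 FPKM for Rel. Pax5, which maintains B cell identity, was listed at 0 in all Con libraries and was at 2.33, 0.33 and 0 FPKM in Abx. Ikzf1, Foxo1, Irf8 and these 8 were named after their values were seen.

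Of the 35 markers of other cell types that were tested, 1 was called (0.0574% of all genes), the B cell marker Ly6d. Of 14 B cell markers, which include Ighm, Cd79a, Cd79b and Cd22, 9 were tested. The list summed to 320 to 395 FPKM across Con and 1103 to 1376 FPKM across Abx. Ly6d supplied 45.2 to 84.5 FPKM of this in Con and 504 to 772 FPKM in Abx, with a log2 fold change of 3.23 and an adjusted p of 0.0353 in limma. Without Ly6d and Ighm, left out after their values were seen, the sums were 134 to 205 FPKM across Con and 171 to 247 FPKM across Abx and overlapped. Fcrla, higher by mean level than Ms4a1, overlapped at 0 to 16.0 FPKM across Con and 0 to 54.3 FPKM across Abx. Its log2 fold change was -0.36 with an adjusted p of 0.963 in limma. Ms4a1, which encodes CD20, was at 3.98 to 5.39 FPKM across Con and 10.8 to 19.8 FPKM across Abx, with an adjusted p of 0.472 in limma. Ighd and Cr2 were listed at 0 in all libraries. Ms4a1, Ighd and Cr2 were named after their values were seen.

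Of 10 plasma cell markers, which here include Iglv1 and Iglc1, 5 were tested and 0 were called, and Jchain and Tnfrsf17, which mark antibody-secreting cells, were listed at 0 in all libraries. Jchain and Tnfrsf17 were named after their values were seen. The list summed to 35.5 to 82.3 FPKM across Con and 138 to 225 FPKM across Abx. Without the lambda genes Iglv1 and Iglc1 the sums were 20.1 to 47.5 FPKM across Con and 30.7 to 38.2 FPKM across Abx and overlapped. Xbp1 was at 14.6 to 42.7 FPKM across Con and 9.46 to 23.6 FPKM across Abx, Mzb1 at 0 to 14.3 and 0.03 to 14.5 FPKM and Sdc1 at 0 to 4.74 and 0.04 to 16.6 FPKM, all of which overlapped. Of 7 markers of plasmacytoid dendritic cells 4 were tested and 0 called, and the sum was 60.9 to 90.5 FPKM across Con and 82.1 to 207 FPKM across Abx, which overlapped. The 10 T cell markers, 6 tested and 0 called, summed to 1225 to 1406 FPKM across Con and 2526 to 2847 FPKM across Abx. Most of this came from Trbc2 and Trbc1, the constant genes of the T cell receptor beta chain. Of the 6, 4 lay above in Abx (8.49% of all genes) and 0 above in Con (8.73%). Besides Trbc2 and Trbc1 these were Cd3g, at 93.3 to 124 FPKM across Con and 140 to 196 FPKM across Abx, and Cd3d, at 4.46 to 8.32 and 37.2 to 108 FPKM. Their adjusted p was 0.535 and 0.0911 in limma. Trac and Cd3e overlapped. The part of these cell types in the kappa values was not tested.

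Of the remaining lists, the sums overlapped between the groups for myeloid, endothelial and erythroid markers and did not overlap for epithelial markers. Myeloid markers (4 of 9 tested) summed to 151 to 406 FPKM across Con and 171 to 396 FPKM across Abx, and endothelial markers (1 of 5 tested) to 5.10 to 10.8 FPKM across Con and 6.14 to 21.1 FPKM across Abx. Epithelial markers (2 of 6 tested) summed to 23.8 to 49.0 FPKM across Con and 52.3 to 76.3 FPKM across Abx. Erythroid markers (4 of 6 tested), chiefly haemoglobin genes, summed to 6422 to 14823 FPKM across Con and 3166 to 8659 FPKM across Abx. None of these genes was called.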

How the data were processed

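SMART-seq of 6 libraries was analysed, 3 Abx and 3 Con, grouped by their labels. The deposited values are FPKM per gene, which the authors made after adapter removal with Cutadapt 1.9 and mapping with HISAT2 2.0.4, by assembly with StringTie 1.3.4d. The methods name a human annotation, Ensembl 96, while the gene identifiers are mouse, and the submitters' processing notes name Bowtie 0.12.2, mm8 and mm9 without a role. The treatment of reads that map to several genes is not given in the sources used here. All 166 identifiers of the locus were matched to GENCODE M21. Read depth is unknown, and FPKM are not counts, so the DESeq2 test of the methods was not repeated.

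The filter kept genes that reached 1 FPKM in 3 or more of the 6 libraries, and these were tested on log2(FPKM + 1), with a pseudocount of 1, in limma 3.58.1 (R 4.3.3) by the functions lmFit and eBayes (option trend=TRUE), two-sided and without a block, with Benjamini-Hochberg adjustment over all 8718 genes. Calls required an adjusted p under 0.05 together with a fold change over 2. The fit was tested on data simulated with normally distributed noise around the gene means. The V genes, with many values listed at 0, differ from this, so the simulation cannot show how the fit performs for them. Members under the filter were compared by exact permutation tests. A log2 fold change on this scale understates the change of genes with low values. Members, gene lists and the rule for named genes were chosen with earlier results of these data known. The text names Igkc, the J genes, Igkv4-59, the 10 V genes with the highest mean, the leading V gene of each library, V genes with groups that do not overlap and up to 5 genes per list by mean level, with those added later said to be so. Alternatives were other pseudocounts, scalings, filters and detection limits, each library left out, and the replicate number as a block. Tables were made with pandas 2.3.3 and numpy 2.4.6 in Python 3.11.15. Promoters of kappa genes (0 of 166 in the RefSeq table used) were not analysed here. The values of some list members are not reported here.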

Additional observations from a re-analysis of the deposited data

How the results depend on the processing

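No kappa gene was called under pseudocounts of 0.1 and 0.01, quantile normalization, median centring, no filter, a mean of at least 5 FPKM, the replicate block or any library left out, and 2 were called with the unadjusted p. Of all genes, 0 were called with the smaller pseudocounts, no filter and the block. The same held without Con replicate 1, Con replicate 2, Abx replicate 1 or Abx replicate 3. In the other settings with adjusted p, 2 to 7 of all genes were called, so a kappa count of 0 says little. With 1 library left out, only 6 to 11 kappa genes were tested. Igkc kept its direction in all settings, with a log2 fold change of 0.61 to 0.997 and adjusted p of 0.256 to 0.711. The V total stayed higher in Abx throughout, by 0.88 to 1.29 on the log2 scale. The adjusted p of Igkv4-59 was 0.0864 to 0.395, and without any 1 Con library the gene no longer passed the filter. The mean number of V genes above 0 in Abx minus Con was -4.33, 3 at a limit of 10 FPKM and -8 to 2 with 1 library left out, with the positive value without Con replicate 3. Pathway genes called numbered 0 to 1 with 1 library left out (Dntt, without Con replicate 3, where it passed the filter only through the Abx libraries). With 1 library left out, the log2 fold change ranged from -0.46 to 2.09 for Igkv12-44 and from -1.56 to 0.30 for Igkv6-32. Igkv6-32 then passed the filter only without Con replicate 2, Abx replicate 2 or Abx replicate 3. The difference in log2(FPKM + 1) ranged from -1.48 to 2.15 for Igkv1-117, -0.14 to 3.06 for Igkv12-41 and -1.57 to 1.93 for Igkv1-135. The alternatives for pathway genes and for V genes under the filter were chosen after seeing the data. The median log2 fold change of all genes was -0.06, and -0.15 to -0.17 with the smaller pseudocounts.

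The labels do not say whether replicate numbers pair the libraries, and correlations among 3 libraries per group cannot settle it. Correlations of deviations between libraries of the same number were -0.02, -0.03 and 0.01, and no library correlated best with its own number. With the replicate block, 0 kappa genes and 0 of all genes were called, compared with 0 and 5 without it, and Igkc had a log2 fold change of 0.82 with an adjusted p of 0.348. The unknown read depth, 3 libraries per group and the likeness of the V genes limit what can be said of a single V gene.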
